A study of Mus musculus with 15 samples.

Results

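The level of 10 genes that steer haematopoietic cells into the myeloid lineage was followed in haematopoietic stem cells (HSC) of young and aged mice, the latter with or without nicotinamide riboside (NR). They were 6 transcription factor genes (Spi1, Cebpa, Cebpb, Cebpe, Gfi1 and Irf8) and 4 genes for subunits of the colony-stimulating factor receptors (Csf1r, Csf2rb, Csf3r and Csf2ra). They were chosen by name from the count table, with earlier results of these data known, and all 10 were among its 16154 genes. Each group held 5 female C57BL/6 mice with 1 library per mouse. There were young mice of 6 to 12 weeks and aged mice of 20 to 24 months, both on acidified drinking water without NR. The NR-treated group held aged mice of 20 to 24 months with NR at 3 mg/ml in their acidified drinking water for 2 months. NR is a form of vitamin B3 from which cells make NAD, a coenzyme of energy metabolism. HSC were sorted as Lin-Sca-1+cKit+CD150+CD48- cells after cells with the surface markers B220, Mac-1, Gr-1 or Ter119 had been depleted, so cells with surface markers of B cells, myeloid cells and red cells were selected against, and 20000 to 25000 cells of each mouse were used.

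Myeloid commitment begins with a few transcription factors that act on each other and on the receptors of the cell. PU.1, the product of Spi1, is required for all myeloid and B cells and drives the genes of several receptors. The C/EBP family binds to related sites: C/EBPα starts granulocyte differentiation, C/EBPβ takes over in stress-driven granulopoiesis and in macrophages, and C/EBPε completes the late granule stage of neutrophils. GFI1 is a repressor that favours neutrophils and keeps HSC quiescent, and IRF8 turns progenitors towards monocytes and dendritic cells. The receptors read the growth factors: CSF1R binds M-CSF and IL-34, CSF3R binds G-CSF, and CSF2RA pairs with the common beta chain CSF2RB to bind GM-CSF.

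The total count was 2122221 to 3631395 in young, 764119 to 13318989 in aged and 2486399 to 3595384 in NR-treated aged libraries. A count of 3 was used as the detection limit, which stood for 0.254 to 3.89 CPM (counts relative to the TMM library size) and covers counting error only. The defining HSC genes were present throughout, with the 11 genes of the HSC list summing to 1858 to 2163 CPM in young, 2186 to 2833 CPM in aged and 1951 to 2444 CPM in NR-treated libraries. Some libraries stood apart. The library labelled Young 3 held 5216 CPM of 15 neutrophil genes against 22.5 to 527 CPM in the other young libraries, and the libraries labelled Young 1 and Young 5 held 284 and 391 counts of 4 Y-linked genes against 2 to 20 in each of the other 13, although all mice were labelled female. For the members, results that rest on these libraries are given with and without them, apart from the fold bounds of Cebpe. Those bounds and the young means and sums of marker genes include all 5 young libraries. In bulk libraries, fewer cells of a type and less RNA per cell cannot be told apart.

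The promoters of 4 members are shown because they include members that fell with NR (Irf8 and Cebpb) as well as members that did not pass the test (Csf3r and Csf2ra). The set of RefSeq promoters used here held 6 of the 10 members, from 250 bases before to 50 bases after the start on GRCm38.p6. It had no entry for Spi1, Cebpe, Csf1r or Csf2rb, which does not mean that RefSeq lacks a start for them. The RefSeq start lay 109 bases from the GENCODE gene start for Csf3r and 11 bases for Csf2ra. In the 32851 RefSeq promoters of 300 bases, the PU box GAGGAA occurred on either strand in 28.3%, the C/EBP motif TTGCNNAA in 10.8%, the IRF motif GAAANNGAA in 8.56% and the STAT (GAS) motif TTCNNNGAA in 8.30%. The 4 motifs are not exclusive and their matches may overlap. Capitals mark every match to any of them, and all sequences run 5′ to 3′ along the gene:
Irf8, chr8:120736108-120736407, plus strand: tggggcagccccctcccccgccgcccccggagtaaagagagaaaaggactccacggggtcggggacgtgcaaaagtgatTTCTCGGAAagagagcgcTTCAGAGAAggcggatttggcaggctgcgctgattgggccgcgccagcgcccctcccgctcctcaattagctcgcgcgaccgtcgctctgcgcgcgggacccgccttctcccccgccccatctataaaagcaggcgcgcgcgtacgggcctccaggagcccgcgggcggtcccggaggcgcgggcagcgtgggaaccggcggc
Cebpb, chr2:167688665-167688964, plus strand: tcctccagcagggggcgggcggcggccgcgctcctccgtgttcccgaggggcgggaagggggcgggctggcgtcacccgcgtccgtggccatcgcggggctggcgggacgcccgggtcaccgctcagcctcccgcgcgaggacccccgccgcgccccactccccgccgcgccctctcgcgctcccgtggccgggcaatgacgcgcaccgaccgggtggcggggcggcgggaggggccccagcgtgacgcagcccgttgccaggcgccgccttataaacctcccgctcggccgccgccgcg
Csf3r, chr4:126024409-126024708, plus strand: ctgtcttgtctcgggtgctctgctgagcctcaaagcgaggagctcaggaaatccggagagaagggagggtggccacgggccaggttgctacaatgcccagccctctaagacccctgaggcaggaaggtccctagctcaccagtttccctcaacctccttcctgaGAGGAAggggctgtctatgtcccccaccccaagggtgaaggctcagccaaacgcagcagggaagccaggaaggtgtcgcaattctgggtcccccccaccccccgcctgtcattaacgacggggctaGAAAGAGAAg
Csf2ra, chr19:61228369-61228668, minus strand: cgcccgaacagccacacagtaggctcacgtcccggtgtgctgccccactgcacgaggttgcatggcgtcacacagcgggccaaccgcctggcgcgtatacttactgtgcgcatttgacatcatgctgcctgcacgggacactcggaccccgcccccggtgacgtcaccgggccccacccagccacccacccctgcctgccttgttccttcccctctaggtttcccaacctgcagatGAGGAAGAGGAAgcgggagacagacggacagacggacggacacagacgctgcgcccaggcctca
The Irf8 promoter held 2 matches to the GAS motif, TTCTCGGAA and TTCAGAGAA, and none to the other 3 motifs. The Cebpb promoter held no match to any of the 4. The Csf3r promoter held 1 PU box and 1 IRF match, and the Csf2ra promoter held 2 adjoining PU boxes. Of the others, Gfi1 held 1 C/EBP match in 1 of its 2 promoters and Cebpa held none. A second RefSeq promoter of Irf8 held none. A match describes letters and is not a binding site, and the absence of one says only that these letters do not occur in the window.

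Aged HSC from NR-treated mice expressed 4 of the 10 genes at a lower level than aged HSC without NR. Cebpb, Cebpe, Irf8 and Csf1r fell at an adjusted p under 0.05 (edgeR's quasi-likelihood test on all 16154 genes), and no member rose. Cebpe had more than 2 CPM in 3 aged, 1 young and 0 NR-treated libraries, so the filter of the table kept it through the groups where it was high, and its place in this count is no support. The smallest of the 4 changes was that of Cebpb, at 10.8 CPM on average with NR against 21.2 CPM without. Spi1, Cebpa, Gfi1, Csf2rb, Csf3r and Csf2ra did not pass the test. Over all genes 8.07% passed in this comparison and 4.18% were lower with NR, and the median log2 fold change was -0.31 over the members and 0.02 over all genes.

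Between aged and young HSC, 1 member passed the test. Csf2rb was lower in aged than in young HSC, against 19.3% of all genes that passed and 9.63% that passed as lower in aged HSC. The median log2 fold change was 0.10 over the members and -0.03 over all genes. Between NR-treated aged and young HSC, 3 members passed, Cebpe, Irf8 and Csf2rb, all lower in NR-treated HSC, where 4.47% of all genes passed and 1.91% passed as lower. The place of Cebpe in this count is again no support, since no NR-treated library took it past the filter. The median was -0.88 over the members and -0.0046 over all genes. The comparisons share libraries and are not independent of each other. In the plot of levels by library, the NR-treated points of Irf8, Csf1r and Cebpe lie together at the bottom, while the young points of the same genes are the most scattered.

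**Figure D1:**
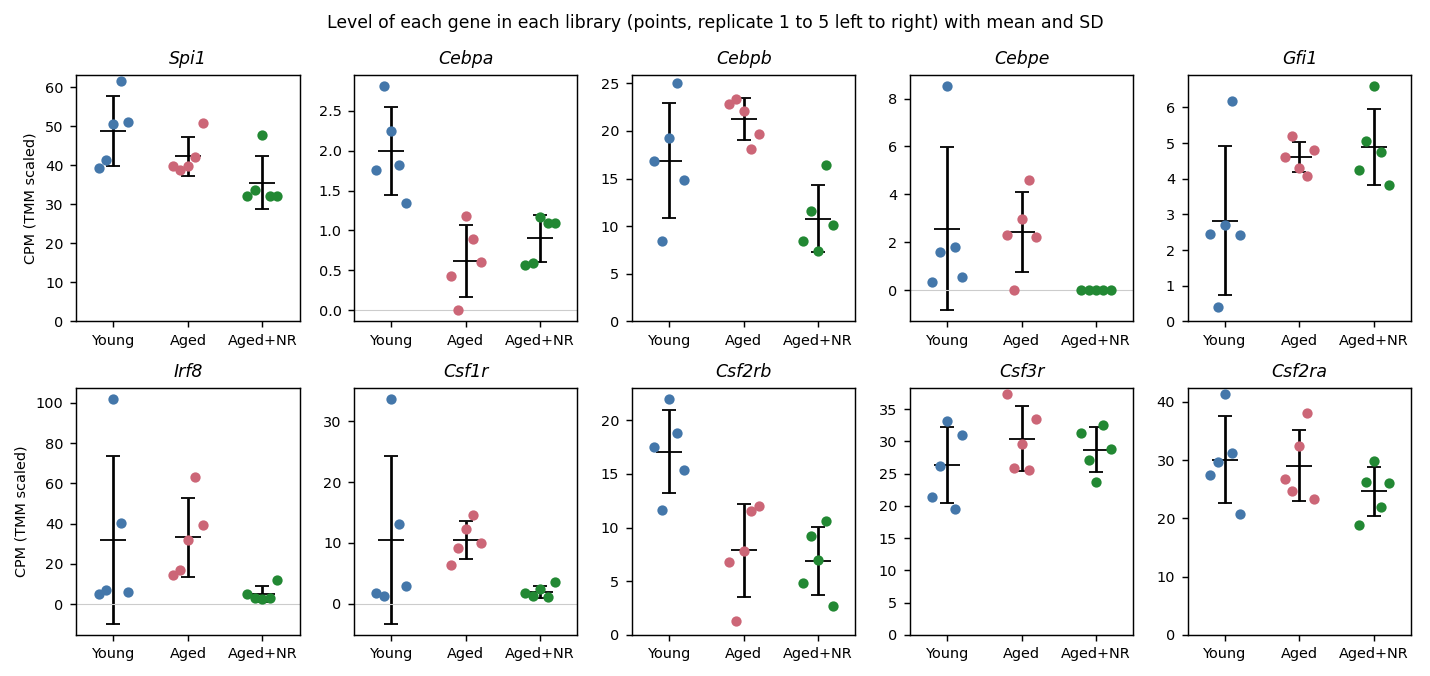
Level of the 10 genes in CPM (vertical axis, linear) in young, aged and NR-treated aged (Aged+NR) HSC, with 1 point per library and the mean and SD of 5 libraries as a bar. Cebpe was at 0 counts in all 5 NR-treated libraries, and Young 3 was the highest library for Irf8 at 102 CPM.

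Irf8, the factor of the monocyte and dendritic branch (chr8:120736358-120756694), was low in every NR-treated library and high in some libraries of the other groups. Its level in young replicates 1 to 5 was 5.26, 6.83, 102, 40.3 and 6.20 CPM, in aged replicates 14.5, 16.9, 32.1, 63.3 and 39.4 CPM and in NR-treated replicates 4.80, 3.28, 2.72, 2.92 and 11.98 CPM. All NR-treated libraries lay below all aged libraries, whereas the young libraries spanned both, with Young 3 and Young 4 high and the other 3 at the level of the NR-treated libraries. The log2 fold change was -2.68 ± 0.72 (SE), adjusted p = 0.0280, between NR-treated and aged HSC, -2.55 ± 0.73 (SE), adjusted p = 0.04999, between NR-treated and young HSC, and 0.14 (adjusted p = 0.910) between aged and young HSC. The call against aged HSC was lost when Aged 3, 4 or 5 or NR-treated 2, 3 or 4 was left out (adjusted p = 0.0573 to 0.0731), without a change of direction. The call against young HSC lay at the threshold and rested on Young 3, without which the log2 fold change was -1.44 with an adjusted p of 0.232. Leaving out Young 4, Aged 2, 3 or 5 or NR-treated 1, 2, 3 or 4 also ended it (adjusted p = 0.0578 to 0.121), and with the replicate number as a block the adjusted p was 0.108. Without Young 3 the aged to young difference of Irf8 was 1.25 (adjusted p = 0.115).

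Cebpe, the factor of late neutrophil maturation (chr14:54710360-54712174), was not detected in NR-treated HSC. Its counts were 1, 4, 19, 5 and 2 in young replicates 1 to 5, 16, 0, 35, 26 and 11 in aged replicates and 0 in all 5 NR-treated replicates, and the 88 counts of the aged group came from 4 of its 5 libraries. As CPM the young libraries held 0.351, 1.61, 8.53, 1.81 and 0.539 and the aged libraries 2.31, 0, 2.96, 4.62 and 2.21. The shallowest aged library, Aged 2, was also at 0, so the aged and NR-treated groups were not fully apart, while all young libraries lay above 0. The libraries that took it past the filter were aged or young ones, so its difference from NR-treated HSC is a description of a gene kept through the groups where it was high. With 3 counts over the whole NR-treated group as the limit, Cebpe was at least 15.5-fold lower than in aged and at least 11.7-fold lower than in young HSC. Both bounds pool the counts of a group. Young 3 held 19 of the 31 young counts and Aged 3 held 35 of the 88 aged counts. The bounds without these libraries were not computed. The adjusted p was 0.0125 against aged and 0.0193 against young HSC, and both comparisons stayed under the threshold with any 1 library left out. These tests cannot address how the filter kept the gene and are no support for the difference. After all libraries were thinned to the total of Aged 2 the adjusted p was 0.143 and 0.0810. Aged and young HSC differed by 0.19 (adjusted p = 0.883) on the log2 scale.

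Cebpb, the C/EBP factor of stress granulopoiesis and macrophages (chr2:167688915-167690418), was expressed in every library. Young replicates held 16.8, 8.44, 19.3, 25.03 and 14.8 CPM, aged replicates 22.8, 23.4, 22.1, 18.1 and 19.7 CPM and NR-treated replicates 8.47, 11.6, 7.39, 16.4 and 10.1 CPM. The highest NR-treated library lay below the lowest aged library, and the young libraries overlapped both groups. The group means were 16.9 ± 6.08 CPM (SD, n = 5) in young, 21.2 ± 2.23 CPM in aged and 10.8 ± 3.54 CPM in NR-treated HSC. The log2 fold change with NR was -0.96 ± 0.24 (SE), adjusted p = 0.0211, and the call was lost without Aged 3 or without NR-treated 3 (adjusted p = 0.0595 to 0.0603). The difference of NR-treated from young HSC was -0.65 (adjusted p = 0.156) and that of aged from young HSC 0.32 (adjusted p = 0.367). The former passed with Young 2 left out (adjusted p = 0.0357).

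Spi1 (chr2:91082390-91115756), the gene of PU.1, passed in no comparison. Young replicates held 39.3, 41.4, 50.7, 61.7 and 51.2 CPM, aged replicates 39.9, 38.9, 39.8, 42.1 and 51.01 CPM and NR-treated replicates 32.2, 33.7, 47.8, 32.1 and 32.1 CPM. The groups overlapped, with 4 of the 5 NR-treated libraries below every young and aged library and NR-treated 3 among them. The log2 fold change was -0.20 (adjusted p = 0.373) between aged and young, -0.26 (adjusted p = 0.284) between NR-treated and aged and -0.46 (adjusted p = 0.0901) between NR-treated and young HSC. The last passed with NR-treated 3 left out (adjusted p = 0.0265).

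Cebpa and Gfi1 were the members with low counts that passed in no comparison, and Cebpa lay near the detection limit. Cebpa (chr7:35119293-35121928) had 5, 7, 5, 5 and 5 counts in young, 3, 0, 14, 5 and 3 in aged and 2, 2, 3, 3 and 4 in NR-treated replicates. In CPM its lowest young library was at 1.35, above the highest aged library at 1.18 and the highest NR-treated library at 1.17, but the differences did not pass, at -1.33 (adjusted p = 0.0559) for aged and -1.12 (adjusted p = 0.244) for NR-treated against young HSC on the log2 scale. Its only libraries above 2 CPM of the library total were 2 young ones, so it met the CPM part of the filter of the table only through the group where it was highest. Only 1 library, a young one, met the CPM and the read part together. Gfi1 (chr5:107716657-107726036) was at 2.46, 0.402, 2.69, 6.17 and 2.43 CPM in young, 4.62, 5.19, 4.31, 4.09 and 4.82 CPM in aged and 4.24, 5.07, 6.61, 4.75 and 3.81 CPM in NR-treated replicates. It had 7, 1, 6, 17 and 9 counts in young, 32, 4, 51, 23 and 24 in aged and 15, 17, 17, 13 and 14 in NR-treated replicates, so Young 2 and Aged 2 were its thinnest libraries. The young libraries overlapped both other groups, and no comparison passed. The log2 fold change was 0.66 (adjusted p = 0.256) for aged against young, 0.10 (adjusted p = 0.899) for NR-treated against aged and 0.77 (adjusted p = 0.332) for NR-treated against young HSC. Its paralog Gfi1b, a repressor of the erythroid and megakaryocyte branch, was at 92.2 ± 13.6 CPM in young, 83.2 ± 12.02 in aged and 114 ± 13.2 in NR-treated aged HSC, and it rose with NR (log2 fold change 0.45 ± 0.13, adjusted p = 0.0353). That call was lost without Aged 2, 4 or 5 or NR-treated 3, 4 or 5 (adjusted p = 0.0642 to 0.0917).

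**Figure D2:**
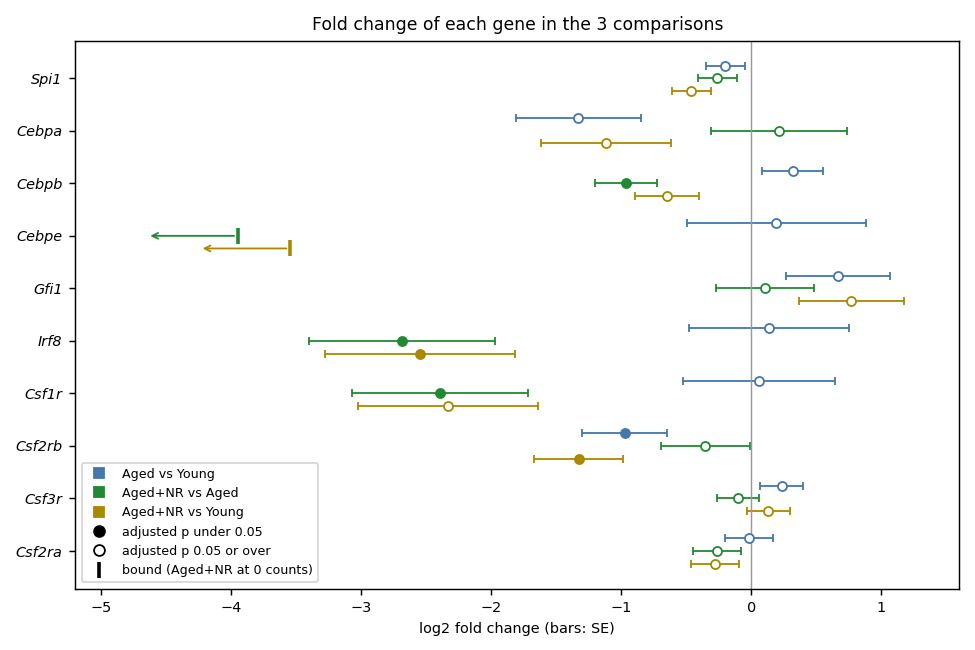
Log2 fold change of the 10 genes (horizontal axis, bars are the SE) for aged against young HSC and for NR-treated aged HSC (Aged+NR) against either, with filled points for an adjusted p under 0.05. The arrows of Cebpe start at the bounds of -3.95 against aged and -3.55 against young HSC, since all NR-treated libraries were at 0 counts, and the estimates of Spi1, Csf3r and Csf2ra lie between -0.46 and 0.23.

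Csf1r (chr18:61100598-61132149), the M-CSF receptor of monocytes and macrophages, fell with NR, as Irf8 did. Young replicates held 1.75, 1.21, 33.7, 13.1 and 2.97 CPM, aged replicates 6.36, 9.08, 12.3, 14.6 and 10.04 CPM and NR-treated replicates 1.69, 1.19, 2.33, 1.10 and 3.54 CPM. Every NR-treated library lay below every aged library, and Young 3 and Young 4 were again the high young libraries. The log2 fold change with NR was -2.39 ± 0.68 (SE), adjusted p = 0.0364, and leaving out Aged 3, 4 or 5 or NR-treated 1, 2, 3 or 4 ended the call (adjusted p = 0.0627 to 0.0880). The difference of NR-treated from young HSC was -2.33 (adjusted p = 0.0606) and missed the threshold (adjusted p = 0.0118 in the likelihood ratio test and 0.0373 in DESeq2). Without Young 1, 2 or 5 it passed (adjusted p = 0.0285, 0.0194 and 0.0366), and without Young 3 it was -1.23 with an adjusted p of 0.290. Aged and young HSC differed by 0.06 (adjusted p = 0.959), and by 1.17 (adjusted p = 0.108) without Young 3.

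Csf2rb (chr15:78325752-78353847), the signalling chain shared by the receptors of GM-CSF, IL-3 and IL-5, was lower in both aged groups than in young HSC. Young replicates held 17.5, 11.7, 22.004, 18.9 and 15.4 CPM, aged replicates 6.79, 1.30, 7.78, 11.6 and 12.1 CPM and NR-treated replicates 4.80, 9.24, 7.0003, 10.6 and 2.72 CPM. All NR-treated libraries lay below all young libraries, while Aged 4 and Aged 5 were level with Young 2, and Aged 2 rested on 1 count. The log2 fold change was -0.97 ± 0.33 (SE), adjusted p = 0.0423, for aged against young HSC and -1.33 ± 0.34 (SE), adjusted p = 0.0286, for NR-treated against young HSC, and NR-treated and aged HSC differed by -0.35 (adjusted p = 0.551). The call in aged HSC was lost without Young 1, 3, 4 or 5 or Aged 1, 2 or 3 (adjusted p = 0.0581 to 0.0938), and that in NR-treated HSC without Young 3 or 4 or NR-treated 1, 3 or 5 (adjusted p = 0.0508 to 0.0755). Without both Young 1 and Young 5 the adjusted p was 0.102 and 0.0732, with log2 fold changes of -1.01 and -1.36.

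The neighbouring gene Csf2rb2 (chr15:78282507-78305721, minus strand) codes for an IL-3 receptor beta chain very similar to CSF2RB. It was at 8.72 ± 4.77 CPM in young, 7.33 ± 2.77 in aged and 6.42 ± 3.18 in NR-treated aged HSC and passed in no comparison. Its log2 fold changes were -0.34 ± 0.40 for aged against young HSC (adjusted p = 0.591) and -0.44 ± 0.40 for NR-treated aged against young HSC (adjusted p = 0.622). Of the windows of 72 bases, the read length, in the last 500 bases of the Csf2rb transcripts 8.05% also occurred in a Csf2rb2 transcript, and none of those of Csf2rb2 occurred in Csf2rb. The values of Csf2rb are uncertain to that extent, since it is not known how reads that match both genes were counted.

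Csf3r (chr4:126024550-126044440), the G-CSF receptor of neutrophils and their progenitors, and Csf2ra (chr19:61223957-61228429), the binding chain of the GM-CSF receptor, passed in no comparison. Csf3r was at 21.4, 26.1, 33.2, 19.6 and 31.02 CPM in young, 37.4, 25.9, 29.7, 25.6 and 33.5 CPM in aged and 31.4, 27.1, 23.7, 32.5 and 28.9 CPM in NR-treated replicates. Csf2ra was at 27.4, 29.7, 41.3, 31.2 and 20.8 CPM in young, 26.7, 24.7, 32.4, 38.05 and 23.3 CPM in aged and 18.9, 26.2, 29.9, 21.9 and 26.1 CPM in NR-treated replicates. The 3 groups overlapped for both genes. Csf3r differed on the log2 scale by 0.23 ± 0.16 (SE), adjusted p = 0.344, between aged and young, by -0.10 ± 0.16 (SE), adjusted p = 0.736, between NR-treated and aged, and by 0.13 ± 0.17 (SE), adjusted p = 0.744, between NR-treated and young HSC. The corresponding log2 fold changes of Csf2ra were -0.02 ± 0.18 (SE), adjusted p = 0.960, then -0.26 ± 0.18 (SE), adjusted p = 0.394, and -0.28 ± 0.19 (SE), adjusted p = 0.474.

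Counting groups that do not overlap gives 3 members between NR-treated and aged HSC (Cebpb, Irf8 and Csf1r, 8.60% of all genes), 3 between NR-treated and young HSC (Cebpa, Cebpe and Csf2rb, 4.74% of all genes) and 1 between aged and young HSC (Cebpa, 12.4% of all genes). Cebpa met the CPM part of the filter of the table only through young libraries and Cebpe passed the filter through aged and young ones, and Young 1 and Young 5 held 1 and 2 counts of Cebpe, under the detection limit, so neither gene is support for these counts. Exons of Cebpa, Cebpb, Gfi1 and Csf1r overlap those of a gene on the other strand in GENCODE M21 (Gm45091, Tmem189, A430072P03Rik and Hmgxb3), and the strand setting of the counting is not given in the sources used here, so reads of these partners cannot be told apart from those of the members.

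Genes of mature blood cells were measured beside the members. Over all genes 4.18% passed as lower in NR-treated than in aged HSC. The 15 neutrophil genes summed to 22.5 to 5216 CPM in young, 682 to 1408 CPM in aged and 9.13 to 126 CPM in NR-treated libraries, and 9 of them fell with NR (3 without NR-treated 3 and 4 without NR-treated 4). S100a8, an abundant calcium-binding protein of neutrophils, was at 401 ± 764 CPM in young, 464 ± 134 in aged and 15.6 ± 16.7 in NR-treated aged HSC (adjusted p = 0.0146 between the aged groups), and Ngp, Camp and S100a9 fell as well, with calls that were lost without NR-treated 3 or 4 and for Camp also without Aged 3 or 5 or NR-treated 1 or 2. Cd177 was at 0 counts in all NR-treated libraries. The monocyte and macrophage genes summed to 432 to 3576 CPM in young, 973 to 2548 CPM in aged and 364 to 608 CPM in NR-treated libraries, with 8 of 15 lower with NR (4 or 5 without Aged 3 or 4 or NR-treated 2, and 2 without NR-treated 3 or 4) and none of them at 0 in any group. Lyz2, the lysozyme of myeloid cells, was at 862 ± 871 CPM in young, 1141 ± 429 in aged and 352 ± 72.7 in NR-treated aged HSC (log2 fold change -1.70 ± 0.41, adjusted p = 0.0191, and 0.05004 to 0.0549 without Aged 3 or NR-treated 3 or 4), and Ly6c2, F13a1 and Ctss also fell, F13a1 not without NR-treated 3 or 4.

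Genes of granulocyte-monocyte progenitors summed to 753 to 1973 CPM in young, 1532 to 2240.3 CPM in aged and 900.3 to 1179 CPM in NR-treated libraries, and 8 of 10 fell with NR. With age 1 of the 10 rose, and 8 did with Young 3 left out. Mpo, the myeloperoxidase of granulocyte precursors, was at 124 ± 205 CPM in young, 265 ± 108 in aged and 15.3 ± 13.5 in NR-treated aged HSC (log2 fold change -4.08 ± 0.91, adjusted p = 0.0126). Prtn3, a granule protease, rose with age (1.17 ± 0.14, adjusted p = 7.07e-06) and fell with NR (-0.44 ± 0.13, adjusted p = 0.0470, lost without Young 1 or 4, Aged 3, 4 or 5 or NR-treated 1, 3, 4 or 5 at adjusted p = 0.0507 to 0.161), whereas Calr and Nkg7 did not pass in any comparison. Erythroid genes were also lower with NR, with sums of 145 to 2656 CPM in young, 3259 to 6517 CPM in aged and 72.3 to 565 CPM in NR-treated libraries and all 7 lower with NR. Hbb-bs, an adult beta globin, was at 773 ± 694 CPM in young, 3003 ± 861 in aged and 81.9 ± 116 in NR-treated aged HSC, and Hbb-bt, Hba-a1 and Hba-a2 fell too. Of the 11 HSC genes, 1 fell with NR (0 without Aged 3 or 5 or NR-treated 3 or 4) and none rose. It was Slamf1, the gene of the sorting marker CD150, named after its values were seen (-0.51 ± 0.14, adjusted p = 0.0288). Meis1, Hlf, Mllt3 and Mecom did not pass between the aged groups. Against young HSC, 5 of the 11 were higher in aged and 3 in NR-treated aged HSC, and none was lower. Over all genes 19.3% and 4.47% passed in these comparisons. The part of mature cells and their RNA in the results of Irf8, Csf1r, Cebpe and Cebpb was not tested.

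Other marker lists were measured in the same way. The 6 dendritic cell genes, of which Tcf4, Bst2, Irf7 and Ly6d had the highest means, summed to 374 to 481 CPM in young, 422 to 525 CPM in aged and 320.3 to 450.4 CPM in NR-treated libraries. Only Ly6d, also a gene of B cell precursors, passed between the aged groups (log2 fold change -4.56 ± 1.19, adjusted p = 0.0249, and 0.0543 to 0.0726 without Aged 3 or NR-treated 2, 3 or 4). B cell genes summed to 71.9 to 236, 84.3 to 147 and 60.5 to 75.98 CPM in the same order, with 3 of 8 lower with NR (0 without Aged 3, 1 without NR-treated 1, 2 or 4 and 2 without Aged 4 or 5 or NR-treated 3 or 5). T and NK cell genes summed to 11.2 to 47.6, 112 to 169.7 and 53.3 to 96.6 CPM. Klrb1c, a receptor of NK cells, was the highest of them in the aged groups, at 10.8 ± 3.23 CPM in young, 134 ± 24.5 in aged and 71.4 ± 18.3 in NR-treated aged HSC, and it rose with age (3.65 ± 0.21, adjusted p = 2.80e-10) and fell with NR (-0.91 ± 0.18, adjusted p = 0.00680). Cd3d, Cd3g and Cd4 passed in no comparison, with log2 fold changes with age of -0.50, 0.02 and -1.63. Cd3e, Cd8a and Ncr1 were not measured, so the sums follow Klrb1c and do not show a rise of the list. Megakaryocyte and platelet genes summed to 555 to 660.4, 560.3 to 967 and 422 to 1341 CPM. Of these 6 genes only Itga2b passed between the aged groups, and it rose with NR (log2 fold change 1.07 ± 0.16, adjusted p = 0.00106). The other 5 did not pass, and the median of the list was 0.15.

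Across the 15 libraries, the log2 level of Irf8 followed that of the summed monocyte and macrophage genes with a Pearson r of 0.97 (0.95 without Young 3), and Csf1r did so with 0.93 (0.91), Cebpe with 0.86 (0.81) and Cebpb with 0.64 (0.66). Csf2ra, which passed in no comparison, stood at 0.66 (0.53). The values were 0.43 for Spi1, 0.0096 for Cebpa, 0.074 for Gfi1, 0.19 for Csf3r and 0.19 for Csf2rb. These relations were not particular to the monocyte and macrophage list. Irf8 stood at 0.91 with the neutrophil genes and 0.86 with the B cell genes. Csf1r stood at 0.94 with the neutrophil genes and Cebpe at 0.86 with the B cell genes. Cebpb stood at 0.83 with the erythroid genes and 0.76 with the neutrophil genes. Between members, Irf8 and Csf1r were closest (r = 0.96, and 0.92 for the deviations from the group means), followed by Cebpe and Irf8 (0.84 and 0.72). These are descriptions over n = 15 libraries that share their groups, depth and TMM sizes, and no p-value is attached to them.

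**Figure D3:**
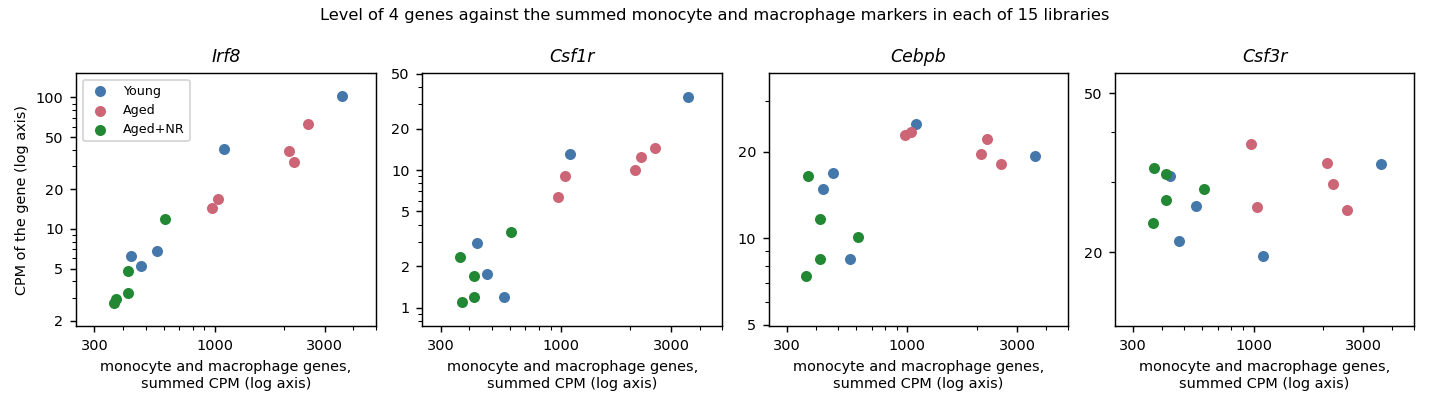
Level of Irf8, Csf1r, Cebpb and Csf3r in CPM (vertical, log axis) against the summed CPM of the 15 monocyte and macrophage genes (horizontal, log axis), with 1 point for each of the 15 libraries, coloured by group. Irf8 and Csf1r rise with the marker sum over all groups (r = 0.97 and 0.93), and Young 3 is the library farthest to the right.

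The genes most like each called member were sought among 11350 genes that averaged 5 CPM or more, by the Pearson r of log2 CPM over the 15 libraries. For Irf8 they were Ccl6 (0.97), Mpeg1 (0.97) and I830127L07Rik (0.97), of which Mpeg1 is a pore-forming protein of macrophages and Ccl6 a myeloid chemokine. For Csf1r they were Ear2 (0.97), Retnlg (0.97) and C3 (0.97), of which Ear2 is a ribonuclease of eosinophils and macrophages and Retnlg also belongs to the neutrophil list. For Cebpe they were Cfp (0.94), Fcer1g (0.92) and Fcgr2b (0.92), which code for properdin, the gamma chain of Fc receptors and an inhibitory Fc receptor. The mean level of Ccl6 was 25.04 CPM in young, 24.5 CPM in aged and 1.78 CPM in NR-treated HSC. That of Ear2 was 12.996 CPM in young, 12.3 CPM in aged and 0.381 CPM in NR-treated HSC. That of Fcgr2b was 7.49 CPM in young, 7.89 CPM in aged and 0.656 CPM in NR-treated HSC. The young medians were lower than these means, at 2.01 CPM for Ccl6, 0 CPM for Ear2 and 4.82 CPM for Fcgr2b. The aged medians were 27.9, 8.24 and 6.63 CPM and the NR-treated medians 1.19, 0 and 0.565 CPM in the same order. Ear2 was at 0 counts in 3 of the 5 young libraries and reached 51.2 CPM in the highest. The young means of Ccl6 and Ear2 therefore do not give the level of most young libraries. For Cebpb they were Zfp148 (0.89), Svip (0.87) and Ecd (0.85), and for Csf2rb Smarca5 (0.90), C330007P06Rik (0.89) and Trps1 (0.89), of which Smarca5 is a chromatin remodeller of HSC and progenitors. Smarca5 was at 175 CPM in young, 146 CPM in aged and 138 CPM in NR-treated HSC. On the deviations from the group means, the r of these genes was 0.83 to 0.98 for Irf8, Csf1r and Cebpe and 0.77 to 0.84 for Cebpb and Csf2rb.

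Other transcription factors of the myeloid branch were called in both directions with age. Over all genes, 19.3% passed with age, 8.07% between the aged groups and 4.47% between NR-treated aged and young HSC. Of 19 measured, 5 rose and 3 fell with age (median log2 fold change -0.08), 2 rose and 2 fell with NR (-0.02; 0 rose without Aged 2, 4 or 5 or NR-treated 3 or 4), and 1 was higher in NR-treated aged than in young HSC (-0.15). Klf4, a factor of monocyte differentiation, was at 37.7 ± 11.2 CPM in young, 91.1 ± 34.9 in aged and 24.3 ± 3.50 in NR-treated aged HSC. It rose with age (1.31 ± 0.23, adjusted p = 6.38e-04) and fell with NR (-1.93 ± 0.24, adjusted p = 1.59e-04). Jun, a subunit of AP-1 and a coactivator of PU.1, went the same way (1.01 ± 0.31, adjusted p = 0.0259, and -1.42 ± 0.31, adjusted p = 0.0114), and its call with age was lost without Young 1, 3, 4 or 5 or Aged 3 (adjusted p = 0.0543 to 0.0898). Id2, an inhibitor of E proteins, rose with age (1.53 ± 0.28, adjusted p = 8.53e-04) and differed by -0.76 ± 0.27 with NR (adjusted p = 0.08002). Maf, a factor of macrophages, was higher in aged than in young HSC both without NR (1.31 ± 0.20, adjusted p = 1.15e-04) and with NR (1.13 ± 0.20, adjusted p = 0.00143).

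Among 10 related receptor subunits, 1 rose and 1 fell with age, near the 19.3% of all genes that passed. Between the aged groups 8.07% of all genes passed. Of the subunits, 0 passed there in edgeR's quasi-likelihood test, 0 in its likelihood ratio test, DESeq2 and limma-voom and 3 at an unadjusted p under 0.05. In NR-treated aged against young HSC 1 was lower, where 4.47% of all genes passed. Flt3, a receptor kinase of lymphoid and dendritic progenitors, was at 14.5 ± 4.26 CPM in young, 3.24 ± 1.29 in aged and 5.46 ± 1.83 in NR-treated aged HSC. It fell with age (-2.03 ± 0.30, adjusted p = 1.07e-04) and was also lower in NR-treated aged than in young HSC (-1.41 ± 0.29, adjusted p = 0.00670). Il6st, the shared signal chain of the IL-6 family, rose with age (0.63 ± 0.14, adjusted p = 0.00386). Of the ligands, Csf1 and Il34 were measured, both of which bind CSF1R. Csf1 passed in no comparison, and Il34, named after its values were seen, rose with NR from 0.949 ± 0.641 CPM to 3.46 ± 1.43 CPM (1.62 ± 0.47, adjusted p = 0.0404). Its aged level lay within the range of detection limits of the libraries, and the call was lost without Aged 2, 3, 4 or 5 or NR-treated 2, 3, 4 or 5 (adjusted p = 0.0533 to 0.119).

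Of 26 genes that carry or limit the signal of these receptors, 4 rose and 6 fell with age, 1 rose and 2 fell with NR, and 3 were higher and 2 lower in NR-treated aged than in young HSC. Over all genes 19.3%, 8.07% and 4.47% passed in these comparisons, and the list medians were -0.17, 0.00065 and -0.18. None rose with NR without Aged 2, 3, 4 or 5 or NR-treated 3, 4 or 5. Socs2, a feedback inhibitor of cytokine receptors, was at 79.2 ± 20.4 CPM in young, 57.7 ± 15.2 in aged and 26.5 ± 10.3 in NR-treated aged HSC. It fell with NR (-1.14 ± 0.24, adjusted p = 0.0103) and lay further below young HSC (-1.57 ± 0.24, adjusted p = 4.15e-04). Cish, another inhibitor of this family and a target of STAT5, was lower in NR-treated aged than in young HSC (-1.01 ± 0.23, adjusted p = 0.0145) and differed by -0.72 ± 0.23 from aged HSC (adjusted p = 0.0624). Syk, a kinase that acts downstream of Fc receptors and integrins, fell with age (-1.04 ± 0.20, adjusted p = 0.00136).

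**Figure D4:**
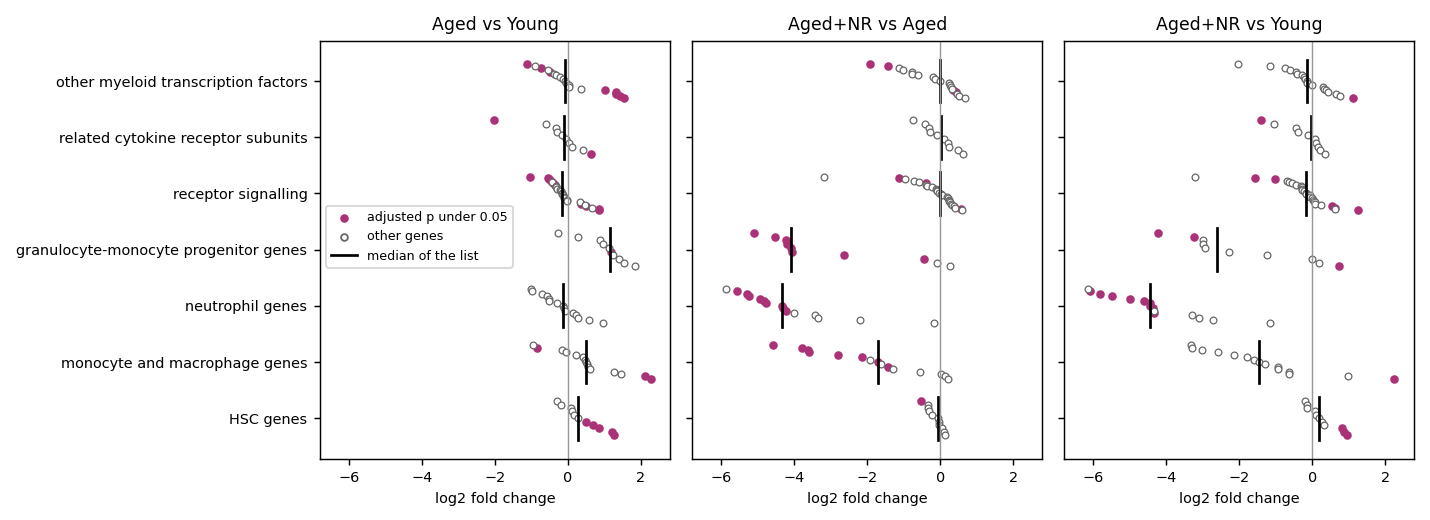
Log2 fold change of each gene (horizontal axis, fitted values) in 3 lists of the myeloid pathway, 3 lists of myeloid cells and the HSC list, for the 3 comparisons, with filled points for an adjusted p under 0.05 and a black bar at the median of the list. Between NR-treated aged (Aged+NR) and aged HSC the medians were -4.35 for neutrophil genes, -1.70 for monocyte and macrophage genes and -0.06 for HSC genes.

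In that plot the median of all genes lies at -0.03, 0.02 and -0.0046 in the 3 comparisons. With Cd177 set to its bound of 3 counts over the NR-treated group, the neutrophil median against aged HSC was -4.30. Of the genes in the pathway lists, 4 rose and 4 fell with NR, and with library totals in place of TMM 12 rose and 3 fell. Without Aged 2 or 4 none rose and 4 fell, and without Aged 5 or NR-treated 3 or 4 none rose and 3 fell, so the balance of these lists depends on the scaling and on single libraries. The genes of the myeloid cell lists that passed between the aged groups were all lower with NR.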

How the data were processed

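RNA was measured in sorted HSC of 15 mice, 5 per group, with RNA from 20000 to 25000 cells per mouse. The authors made 3′ biased libraries with a 10 bp unique molecular identifier (UMI), aligned reads to GRCm38 with STAR 2.4.2a, removed UMI duplicates, counted the remaining reads on GENCODE M15 exons with featureCounts and deposited read counts per gene, kept at more than 5 reads and 2 CPM in at least 2 samples. The counts were used as deposited. They are not normalised, and the total per library ranged from 764119 to 13318989. Counts of any pair of libraries within a group differed by more than sampling noise (chi-square over its degrees of freedom of at least 2.997).

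Groups were compared with edgeR 4.0.16 (R 4.3.3), with TMM library sizes, 1 fit of all 15 libraries on group, quasi-likelihood tests and adjustment by Benjamini-Hochberg for 16154 genes. An adjusted p under 0.05 was called, and the SE is the size of the fold change over the root of F. Levels are CPM with TMM sizes, log2 CPM used a prior count of 2, and errors of means are SD. The p-values measure the spread between mice. The 10 members and the gene lists were chosen with earlier results of these data known. The genes named were all members, up to 4 called genes of each pathway list by size of change with a mean of at least 5 CPM, up to 4 genes of each marker list by mean level, the 3 genes most like each called member, Csf2rb2 and Gfi1b. Some genes that this rule names are not reported here.

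Alternatives were edgeR's likelihood ratio test, DESeq2 1.42.0, limma-voom 3.58.1, DESeq2 size factors, library totals, 2 count filters, fits of 2 groups, thinned counts, a replicate block, a stricter threshold and libraries left out. Replicate numbers did not pair the mice. The scripts were tested on simulated data. Positions came from GENCODE M21 and promoters from RefSeq (GRCm38.p6). The steps after the fits used Python 3.11.15, NumPy 2.4.6 and pandas 2.3.3.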

Additional observations from a re-analysis of the deposited data

Results flagged for a closer look

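A single library lay far from the other 4 of its group in 4 of the 29 sets of 5 values that were examined. There was 1 set for each member and group with values that differ. Chance gives about 1 in 20, but the sets share libraries and some rest on few counts. An excess over chance cannot be read from this. Spi1 in Aged 5 was at 51.01 CPM against 42.1 CPM in the next library, and Spi1 in NR-treated replicate 3 was at 47.8 CPM against 33.7 CPM. Cebpe in Young 3 was at 8.53 CPM against 1.81 CPM, and that library also had the highest neutrophil and monocyte sums. Irf8 in NR-treated replicate 5 was at 11.98 CPM against 4.80 CPM, and the same library had the highest neutrophil sum (126 CPM) and monocyte and macrophage sum (608 CPM) of the NR-treated group. The part of these sums in the values was not tested.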

How the results depend on the processing

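Of 762 values of single members under an alternative, 675 kept their direction and side of the threshold, 50 lost the call, 11 gained it and 26 changed sign, none of the last in a called result. Where the text names no other reason, the cause was not tested. The number of members called between aged and young HSC was 1, and it was 2 with the likelihood ratio test, limma-voom or library totals (Cebpa added), 0 without Young 1 and Young 5, 0 with counts thinned to the smallest total and 0 at an adjusted p under 0.01, where 2 had an unadjusted p under 0.05. Between the aged groups it was 4, with 1 after thinning (Irf8) and 0 at the stricter threshold. Between NR-treated and young HSC it was 3, with 1 in limma-voom (Csf2rb), 1 after thinning (Irf8) and 0 at the stricter threshold. Only Spi1, Cebpb, Csf3r and Csf2ra had at least 10 counts in every library, and among them 0, 1 and 0 passed in the 3 comparisons, since fewer members were tested. Leaving out 1 library gave 0 to 1, 1 to 4 and 1 to 5 members. The pathway lists had 20, 8 and 7 genes called. The 8 became 15 with library totals (12 higher and 3 lower), 3 after thinning, 5 without Young 1 and Young 5 and 1 at the stricter threshold, and leaving out 1 library gave 16 to 21, 3 to 10 and 6 to 10, with 3 or 4 between the aged groups without Aged 2, 3, 4 or 5 or NR-treated 3, 4 or 5.

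Signs changed for small differences. Between aged and young HSC, Cebpe was -0.59 after thinning and -0.49 without Young 1 and 5 (-0.10 to 1.38 with 1 library out), Irf8 was -0.022 with library totals and -0.52 without Young 1 and 5 (-0.23 to 1.25), Csf1r was -0.012 in DESeq2, -0.095 with library totals and -0.57 without Young 1 and 5 (-0.22 to 1.17), and Csf2ra was 0.046 in limma-voom (-0.14 to 0.12). Between the aged groups Csf3r was 0.037 with library totals and Gfi1 -0.022 to 0.18 with 1 library out. Library totals moved the median of all genes to -0.16 with age and 0.16 with NR, and the share of called genes that were higher from 50.1% to 29.1% and from 48.1% to 78.4%.

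The replicate number as a block gave 1, 4 and 2 members and 18, 6 and 7 pathway genes. Libraries of the same number did not deviate together (r of deviations -0.26 to 0.15 over 15 pairs), so the numbers do not pair the mice, and the block ended the call of Irf8 against young HSC and no other call of a member. Depth limits Cebpa, Cebpe, Gfi1 and Csf1r, which had 3 counts or fewer in at least 1 library, and Csf2rb in Aged 2.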
